A study of Mus musculus with 22 samples.

Results

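Liver gene expression was compared between male mice that had a western diet in both periods of life and males that had it in neither. The first group, WW (n = 6), came from dams fed a western diet before and during pregnancy and nursing, and was itself fed that diet after weaning. The second, LL (n = 6), came from dams fed a low-fat control diet and stayed on it. These 12 mice are the 2 extremes of a design with 22 mice in 4 groups, taken by their titles alone and not by any measured value. The other groups are LW (n = 5, low-fat dam and western diet after weaning) and WL (n = 5, western-diet dam and low-fat diet after weaning). Their arrays entered the normalization and the fit, where they add to the estimate of the spread. Their levels are also set beside those of WW and LL, without a test. All mice were C57BL/6J, an inbred strain with no introduced allele, and were 29 weeks old. Dams had started their diet at 5 weeks of age and were mated after 6 weeks on it, and offspring were fed for 24 weeks. Since both diets differ between WW and LL, this comparison alone cannot tell apart the diet of the dam and the diet of the offspring. The labels describe separate offspring and name no litter. Each mouse is treated as 1 replicate, and the diet of the dam acts on a whole litter. The p-values therefore measure the spread between the mice of all 4 groups, some of which may share a dam.

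The liver makes fat from sugar, takes up fat from food, burns it in mitochondria and peroxisomes, stores it in droplets and exports it on lipoproteins. Western diets, rich in fat and sugar, are known to fill mouse hepatocytes with droplets and, over months, to be followed by immune cell entry and scarring. Male mouse liver also carries a gene programme set by pulses of growth hormone, with steroid and fatty acid enzymes that females make little of.

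Each mouse has 1 Illumina bead array, on which 45281 probes report an intensity and a detection p-value. WW arrays detected 14155 to 15105 probes and LL arrays 13818 to 14802, and mean signals ran between 198 and 276 intensity units in WW and between 151 and 268 in LL. The lowest mean signal belonged to LL replicate 1. Liver identity was plain in the signal: 23 of 26 hepatocyte genes were tested, with a median log2 difference of -0.12 and none called, while 1 of 26 exocrine pancreas genes and 0 of 14 skeletal muscle genes passed the detection filter. The arrays lay on 4 slides. Slides 1 and 4 hold both groups (2 WW and 1 LL arrays, and 2 WW and 3 LL arrays), slide 2 holds 2 WW and no LL arrays, and slide 3 holds 2 LL and no WW arrays. Values are therefore also given with slide as a block and as differences within slides 1 and 4. Every slide 1 difference rests on LL replicate 1, the only LL array there. That array also had the lowest median correlation with the other arrays of the series, 0.965. LL replicate 3 stands apart among the LL mice, with high immune and matrix signals that are given below beside the genes they touch.

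Of 8992 genes tested, 97 differed between WW and LL at an adjusted p under 0.05 in limma (1.08% of genes tested), 55 of them higher in WW (0.612%) and 42 lower (0.467%). The median log2 difference was 0.0040 over all genes tested and 0.82 in absolute size over the called genes, of which 37 exceeded 1 on the log2 scale, 22 higher and 15 lower. In 55 of the 97 called genes the 6 WW mice and the 6 LL mice did not overlap at all, against 1.49% of all genes tested. All 97 had the same direction within slide 1 and within slide 4, whereas 63.57% of all genes tested had the same direction in these 2 slides. Those arrays also entered the fit that called the genes, so this is no independent check. Of the 97, 78 were also called with slide as a block, where 155 genes were called (1.72%).

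The number of calls turned on single mice. It was 36 without WW replicate 2, 36 without WW replicate 4 and 36 without LL replicate 5, 46 without LL replicate 6, 55 without LL replicate 2 and 256 without LL replicate 3, and 29 of the 97 genes passed whichever 1 of the 12 mice was left out. The share of calls that were higher in WW was 56.7%. It was 76.6% when arrays were centred on their medians in place of quantile normalization, a scaling that moved the median difference of all genes to 0.10 and left 49 higher and 15 lower genes. On the authors' own normalized values 49 genes were called, and dim probes differed less there: the difference of Srebf1 was 0.34 and that of Hacl1 was -0.18. Every called gene kept its direction under each of these settings. Genes next to the threshold were Galnt10, Nrg4 and Gm4952 on the inside, at adjusted p = 0.0465, 0.0465 and 0.0469, and Ahctf1, Plscr4 and Samd9l on the outside, each at 0.0502.

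**Figure D1:**
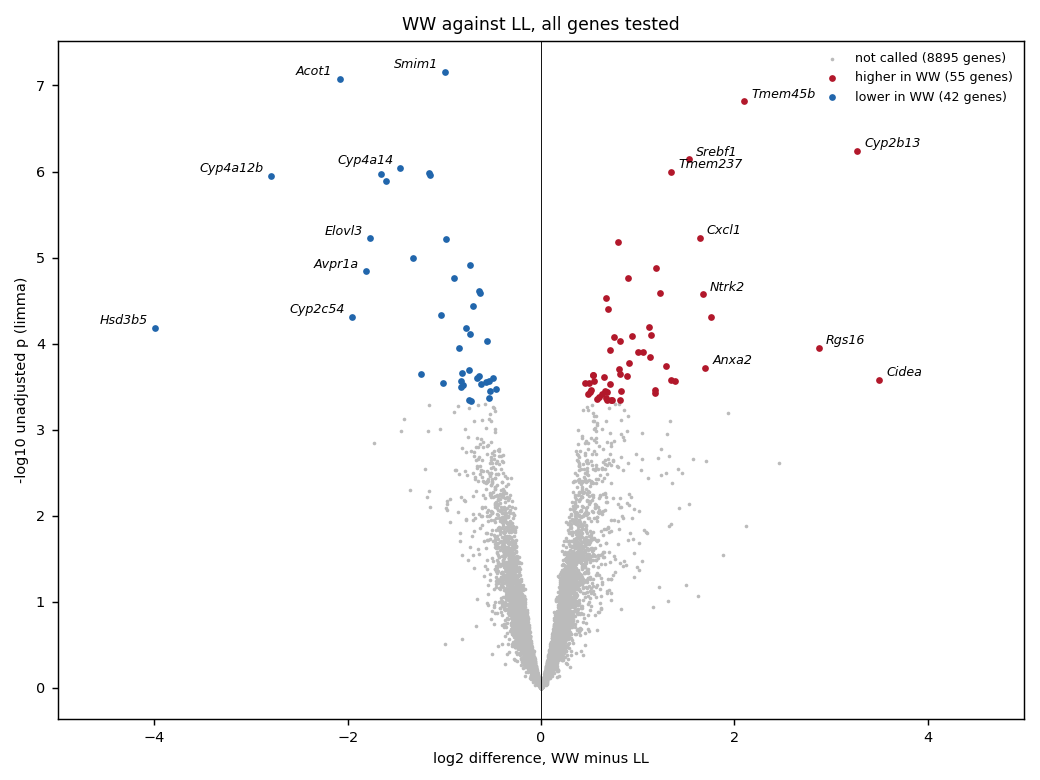
Log2 difference, WW minus LL (x axis), against the -log10 of the unadjusted p of limma (y axis) for the 8992 genes tested, with the 55 genes called higher in WW in red, the 42 called lower in blue and the others in grey. Cidea and Cyp2b13 lie farthest to the right among the called genes and Hsd3b5 and Cyp4a12b farthest to the left.

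In the following, the 3 values given for a gene in a group are those of its lowest, median and highest mouse in log2 units of normalized intensity, and differences are WW minus LL with the standard error of the fit. In RNA from whole liver, fewer cells of a type and less RNA per cell cannot be told apart. Levels of different genes come from different probes and are not set against each other. Counts of called genes in a list are to be read beside the 1.08% of all genes tested that were called, 0.612% higher and 0.467% lower.

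3 genes of fat storage and fat synthesis rose in WW livers, Cidea, Pparg and Srebf1. Among 20 tested lipid droplet and PPAR-gamma target genes, 2 rose and none fell, with a median of 0.07, and among 24 tested genes of fatty acid and triglyceride synthesis 1 rose and none fell, with a median of 0.15. Cidea, which enlarges lipid droplets by joining them, had 7.54, 10.22 and 11.09 in WW livers, against 4.38, 6.44 and 8.45 in LL livers. The difference was 3.50 ± 0.82 (SE), adjusted p = 0.0390, with a 95% interval of 1.80 to 5.19 on the log2 scale. WW replicate 6 and the 3 highest LL mice overlapped, and the probe was detected on 4 of 6 LL arrays. Pparg, the nuclear receptor that drives fat storage in adipocytes, had 8.79, 9.24 and 9.44 in WW livers, against 6.30, 8.0 and 8.88 in LL livers, a difference of 1.38 ± 0.33 (SE), adjusted p = 0.0390. Every WW mouse lay above 5 of the 6 LL mice, the exception being LL replicate 3. Srebf1, the transcription factor that switches on fatty acid synthesis genes, had 7.13, 7.83 and 8.07 in WW livers, against 5.65, 6.31 and 6.63 in LL livers, with no overlap and a difference of 1.53 ± 0.23 (SE), adjusted p = 0.00149. Within slides the differences were 5.57 within slide 1 and 2.58 within slide 4 for Cidea, 2.80 within slide 1 and 1.33 within slide 4 for Pparg and 1.34 within slide 1 and 1.48 within slide 4 for Srebf1.

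The Srebf1 call held whichever mouse was left out. The Cidea call held in 5 of 12 such fits and reached adjusted p = 0.101 without WW replicate 2, and the Pparg call held in 4 and reached 0.0938 without WW replicate 2. Thrsp, a small protein that promotes fat synthesis, differed by 1.93 ± 0.49 (SE), adjusted p = 0.0546, and passed with slide as a block (adjusted p = 0.0363). Cidec, a droplet protein related to Cidea, differed by 1.35 ± 0.50 (SE), adjusted p = 0.181, and Fitm1, which helps form droplets, by 1.33 ± 0.35 (SE), adjusted p = 0.0608, so neither passed. Plin2, the main droplet coat protein of fatty liver, averaged 10.64 ± 0.33 in WW livers and 10.82 ± 0.58 in LL livers (SD, n = 6 each), and its difference of -0.18 ± 0.23 did not pass (adjusted p = 0.774). Plin5, a coat protein that ties droplets to mitochondria, had 9.09, 9.52 and 9.92 in WW livers, against 9.93, 10.17 and 10.44 in LL livers, which do not overlap, but its difference of -0.66 ± 0.20 did not pass after adjustment (adjusted p = 0.0998). Mlxipl, the sugar-sensing transcription factor ChREBP, differed by -0.39 ± 0.13 (SE), adjusted p = 0.131.

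Beside them, the means of the groups with 1 western-diet period fell between those of WW and LL for the 3 called genes. Srebf1 averaged 7.71 ± 0.39 in WW, 7.31 ± 0.59 in LW, 6.84 ± 0.36 in WL and 6.18 ± 0.41 in LL livers (SD). Pparg averaged 9.20 ± 0.26, 8.78 ± 0.25, 8.19 ± 0.87 and 7.82 ± 0.86 in the same groups, and Cidea 9.86 ± 1.37, 8.29 ± 1.81, 6.67 ± 1.64 and 6.37 ± 1.77. Cidea varied by over 3 log2 units among mice of each group.

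**Figure D2:**
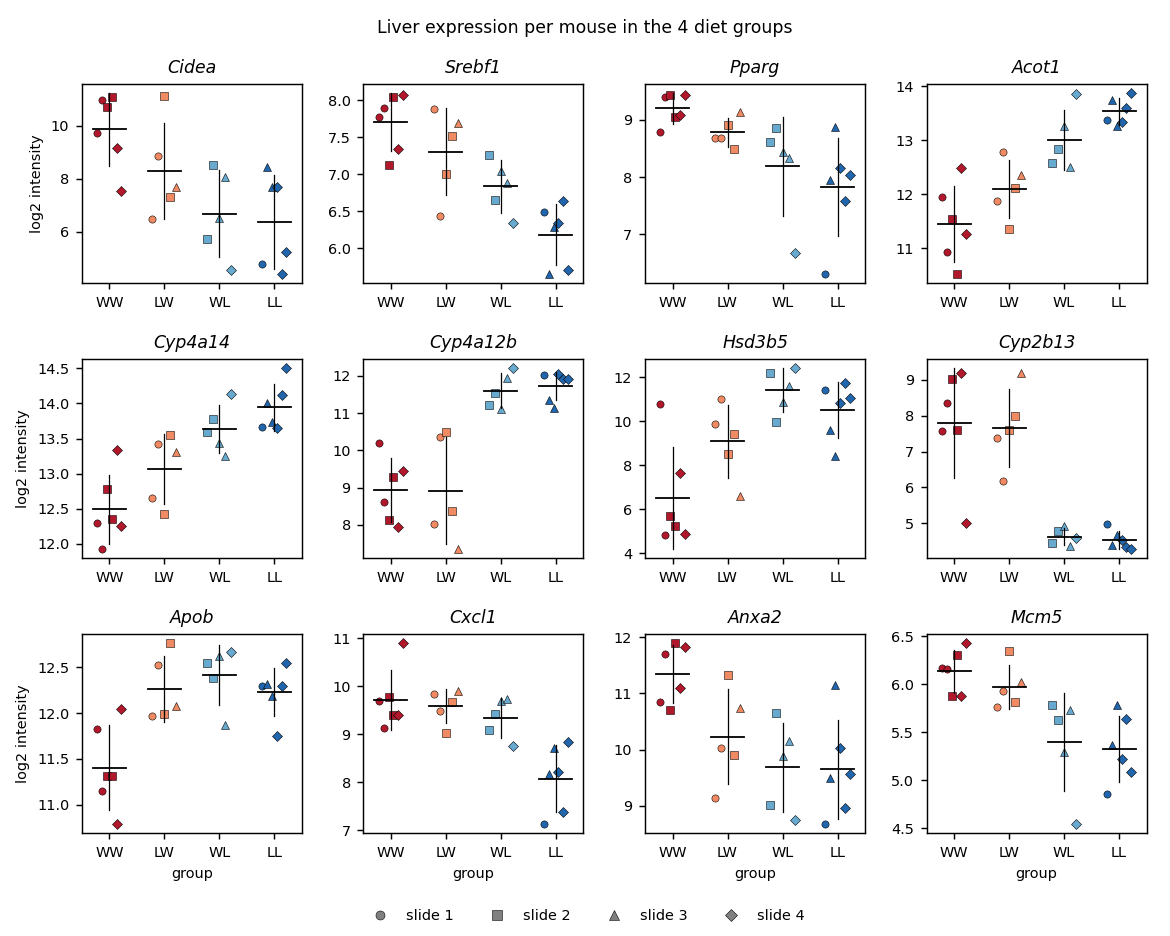
Log2 intensity of 12 genes in each mouse (y axis) for the groups WW, LW, WL and LL (x axis), with the marker giving the slide and the lines the mean ± SD. For Srebf1, Acot1, Cyp4a14, Cyp4a12b and Cxcl1 the 6 WW and 6 LL mice do not overlap, whereas for Cidea, Hsd3b5 and Apob they do.

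Enzymes that oxidise fatty acids at their far end and that split fatty acyl-CoA had the lowest median of the 46 lists with at least 5 tested genes. Of 15 tested omega-hydroxylases and acyl-CoA thioesterases, 5 fell and none rose, with a median of -0.77 (blocking on slide, -0.63), beside 0.467% of all genes called lower and a median over all genes of 0.0040. Acot1, a cytosolic thioesterase that releases free fatty acid from its CoA ester, had 10.52, 11.41 and 12.50 in WW livers, against 13.27, 13.49 and 13.87 in LL livers, with no overlap. It fell by 2.08 ± 0.28 on the log2 scale (adjusted p = 0.000607), which is 4.24-fold. Cyp4a14, an omega-hydroxylase and a classical target of the fatty acid receptor PPAR-alpha, had 11.92, 12.32 and 13.34 in WW livers, against 13.65, 13.87 and 14.50 in LL livers, a difference of -1.45 ± 0.22 (SE), adjusted p = 0.00149. Cyp4a31, of the same family, had 9.28, 10.71 and 10.99 in WW livers, against 11.58, 12.03 and 12.46 in LL livers (-1.60 ± 0.25 (SE), adjusted p = 0.00155). Neither gene overlapped between the groups. Cyp4a12b, the male-biased member, had 7.95, 8.94 and 10.19 in WW livers, against 11.14, 11.91 and 12.04 in LL livers, a 6.96-fold difference (-2.80 ± 0.44 (SE), adjusted p = 0.00149). Its probe can share signal with its near-identical neighbour Cyp4a12a. Acot8, a peroxisomal thioesterase, differed by -0.64 ± 0.12 (SE), adjusted p = 0.0115, and Acot3, another peroxisomal one, by -1.36 ± 0.44 (SE), adjusted p = 0.127. The dimmer probes of Acot8 did not pass, at 0.07 ± 0.14 (SE), adjusted p = 0.856, and at -0.46 ± 0.17 (SE), adjusted p = 0.177.

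The 4 largest of these differences had the same direction within slides, with Acot1 at -1.93 within slide 1 and -1.72 within slide 4, Cyp4a14 at -1.56 within slide 1 and -1.29 within slide 4, Cyp4a31 at -1.66 within slide 1 and -1.96 within slide 4 and Cyp4a12b at -2.63 within slide 1 and -3.26 within slide 4. Their calls held whichever mouse was left out. As a score, the mean over the 15 genes of the difference from the LL mean, the WW mice lay between -1.12 and -0.44 and the LL mice between -0.22 and 0.21. Acot1 averaged 11.45 ± 0.71 in WW, 12.10 ± 0.53 in LW, 13.01 ± 0.56 in WL and 13.54 ± 0.24 in LL livers. Cyp4a12b averaged 8.93 ± 0.86 in WW and 8.92 ± 1.43 in LW, against 11.60 ± 0.47 in WL and 11.73 ± 0.38 in LL livers.

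The wider programme of fat burning held few calls. Of 25 tested genes of fatty acid beta-oxidation 1 fell and none rose, with a median of -0.14, and of 19 tested PPAR-alpha and fasting genes 2 fell, which are Acot1 and Cyp4a14, with a median of -0.31. Acsl1, which activates long-chain fatty acids by joining them to CoA, had 10.48, 11.20 and 11.46 in WW livers, against 11.74, 11.86 and 12.33 in LL livers, with no overlap and a difference of -0.85 ± 0.19 (SE), adjusted p = 0.0244. Its call held in 7 of 12 fits without 1 mouse and reached adjusted p = 0.0753 without LL replicate 6. Hacl1, which removes 1 carbon in peroxisomal alpha-oxidation, had 5.33, 5.55 and 6.29 in WW livers, against 6.62, 6.83 and 7.34 in LL livers, a difference of -1.16 ± 0.18 (SE), adjusted p = 0.00149. Ehhadh, the peroxisomal bifunctional enzyme, differed by -1.16 ± 0.38 (SE), adjusted p = 0.127, and Crat, carnitine acetyltransferase, by -0.65 ± 0.20 (SE), adjusted p = 0.113 (blocking on slide, adjusted p = 0.00853). The 30 tested oxidative phosphorylation subunits held no called gene and had a median of -0.06.

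Some sex-biased genes changed in WW livers. Of 26 tested male-biased genes 5 fell and none rose (median -0.38, or -0.28 blocking on slide), and of 11 tested female-biased genes 2 rose and 1, Cyp4a14, fell (median -0.02). Of those 2, Cyp2b13 passed the detection filter only through WW, where it is high, so it adds no support to the count. Over all genes tested, 0.467% were called lower and 0.612% higher. Hsd3b5, a steroid-reducing enzyme made by adult male liver, had 4.83, 5.48 and 10.79 in WW livers, against 8.42, 10.95 and 11.76 in LL livers. It showed the lowest difference of any called gene, -4.0 ± 0.83 (SE), adjusted p = 0.0177. The probe was detected on 5 of 6 WW arrays, and the lowest WW values lie near background, so the size of the difference is measured against that floor. WW replicate 1 alone reached the LL range, at 10.79, and the other 5 WW mice lay below every LL mouse. The call held in 9 of 12 fits without 1 mouse, with adjusted p = 0.0638 without WW replicate 2, and the within-slide differences were -3.62 in slide 1 and -4.96 in slide 4. Elovl3, an elongase of long saturated fatty acids, had 8.09, 8.85 and 9.39 in WW livers, against 9.85, 10.63 and 11.52 in LL livers, with no overlap (-1.77 ± 0.31 (SE), adjusted p = 0.00472). Cyp2c54, a cytochrome P450 of the arachidonic acid and drug family, differed by -1.96 ± 0.40 (SE), adjusted p = 0.0147, and averaged 6.02 ± 1.07 in WW livers beside 8.10 ± 0.70 in LW, 7.98 ± 0.59 in WL and 7.98 ± 0.65 in LL livers. Its call held in 11 of 12 fits without 1 mouse, the exception being 0.0517 without WW replicate 4. WW replicates 4 and 6, at 4.69 and 4.92, lie near background, so the size of the difference is measured against that floor. Over the alternatives that kept all mice of a group or slide set, the difference ran between -2.32 and -0.46. Cyp2c67, of the same family, fell less, by 0.70 ± 0.14 on the log2 scale (adjusted p = 0.0132), and did not overlap between the groups.

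Cyp2b13, a cytochrome P450 that female liver makes and male liver normally does not, had 5.01, 7.99 and 9.20 in WW livers, against 4.28, 4.46 and 4.97 in LL livers. The probe was detected on all 6 WW arrays and on 1 of 6 LL arrays, so it passed the detection filter only through WW. LL levels lie near background, and the difference of 3.27 ± 0.49 (SE), adjusted p = 0.00149 is measured against that floor. WW replicate 6, at 5.01, stood just above the LL range and the other 5 WW mice far above it. Cyp2b13 averaged 7.80 ± 1.53 in WW and 7.67 ± 1.09 in LW, against 4.62 ± 0.23 in WL and 4.53 ± 0.26 in LL livers. Ntrk2, the receptor of brain-derived neurotrophic factor and a member of the female-biased list, had 6.09, 7.12 and 8.28 in WW livers, against 4.55, 5.42 and 6.35 in LL livers (1.67 ± 0.32 (SE), adjusted p = 0.0115). Its lowest LL value, 4.55, lies near background. Srd5a1, which reduces testosterone to dihydrotestosterone, had 7.35, 7.61 and 7.78 in WW livers, against 8.41, 8.46 and 8.95 in LL livers, without overlap (-0.98 ± 0.17 (SE), adjusted p = 0.00472). Cyp17a1, an enzyme of steroid synthesis, differed by -1.18 ± 0.39 (SE), adjusted p = 0.135.

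The growth hormone pathway itself held no called gene among 14 tested (median -0.20). Ghr, the growth hormone receptor, differed by 0.17 ± 0.17 (SE), adjusted p = 0.704, and Igf1, the main hormone that liver releases under growth hormone, by -0.23 ± 0.16 (SE), adjusted p = 0.519. Socs2, a feedback inhibitor induced by the pathway, had 5.55, 6.30 and 7.01 in WW livers, against 6.50, 7.46 and 8.69 in LL livers, and its difference of -1.14 ± 0.40 did not pass (adjusted p = 0.152). Igfals, which stabilises IGF1 in blood, differed by -0.56 ± 0.18 (SE), adjusted p = 0.124, Igfbp2 by -1.20 ± 0.36 (SE), adjusted p = 0.101 and Igfbp3 by 0.73 ± 0.23 (SE), adjusted p = 0.114. The interval of the Igf1 difference was -0.55 to 0.09, and that of Ghr was -0.19 to 0.52. As a score over the 26 male-biased genes the WW mice lay between -0.92 and -0.19, WW replicate 1 being the highest, and the LL mice between -0.33 and 0.20.

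2 of 14 tested receptor genes for growth factors and hormones fell and none rose (median -0.11), beside 0.467% of all genes called lower. Avpr1a, the vasopressin receptor of hepatocytes, had 6.57, 7.12 and 7.25 in WW livers, against 7.76, 8.56 and 9.78 in LL livers, with no overlap and a 3.52-fold difference (-1.81 ± 0.34 (SE), adjusted p = 0.00836). Egfr, the epidermal growth factor receptor, had 8.37, 8.72 and 9.52 in WW livers, against 9.58, 9.99 and 10.80 in LL livers, also with no overlap (-1.24 ± 0.29 (SE), adjusted p = 0.0373). The other tested probes of Egfr were lower in WW too, but none passed. They stood at -1.09 and -0.97 (adjusted p = 0.196 and 0.192) and at -1.14 and -0.78 (adjusted p = 0.0669 each). The Avpr1a call held whichever mouse was left out, and the Egfr call held in 5 of 12 fits and reached adjusted p = 0.185 without LL replicate 1. Within slides they were -2.66 within slide 1 and -2.06 within slide 4 for Avpr1a and -1.86 within slide 1 and -1.28 within slide 4 for Egfr.

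In the lipoprotein genes 1 of 24 tested fell and none rose (median -0.02). Apob, the structural protein of very low density lipoprotein, had 10.79, 11.31 and 12.05 in WW livers, against 11.75, 12.29 and 12.55 in LL livers, and only WW replicates 1 and 6 reached into the LL range. The difference was -0.82 ± 0.19 (SE), adjusted p = 0.0390, a 1.77-fold lower signal, and the call held in 4 of 12 fits without 1 mouse, reaching adjusted p = 0.101 without WW replicate 2. Apob averaged 11.41 ± 0.46 in WW livers, beside 12.27 ± 0.36 in LW, 12.42 ± 0.32 in WL and 12.23 ± 0.26 in LL livers. Mttp, which loads fat onto that protein, differed by -0.45 ± 0.18 (SE), adjusted p = 0.218, and Sort1, a sorting receptor for it, by 0.80 ± 0.24 (SE), adjusted p = 0.101. Cholesterol synthesis and uptake held no called gene among 20 (median 0.25), with Msmo1, a sterol oxidase, at 0.80 ± 0.30 (SE), adjusted p = 0.195. Of 18 bile acid genes none was called (median -0.03), and Cyp7a1, the rate-limiting enzyme of bile acid synthesis, differed by 0.31 ± 0.37 (SE), adjusted p = 0.753. The 21 tested glucose and insulin genes held no call either (median -0.10). Pck1 and G6pc, the enzymes that start and finish glucose synthesis, differed by -0.94 ± 0.31 (SE), adjusted p = 0.138, and -0.86 ± 0.30 (SE), adjusted p = 0.159. Ppp1r3c, which brings a phosphatase to glycogen, differed by -0.63 ± 0.19 (SE), adjusted p = 0.0995.

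**Figure D3:**
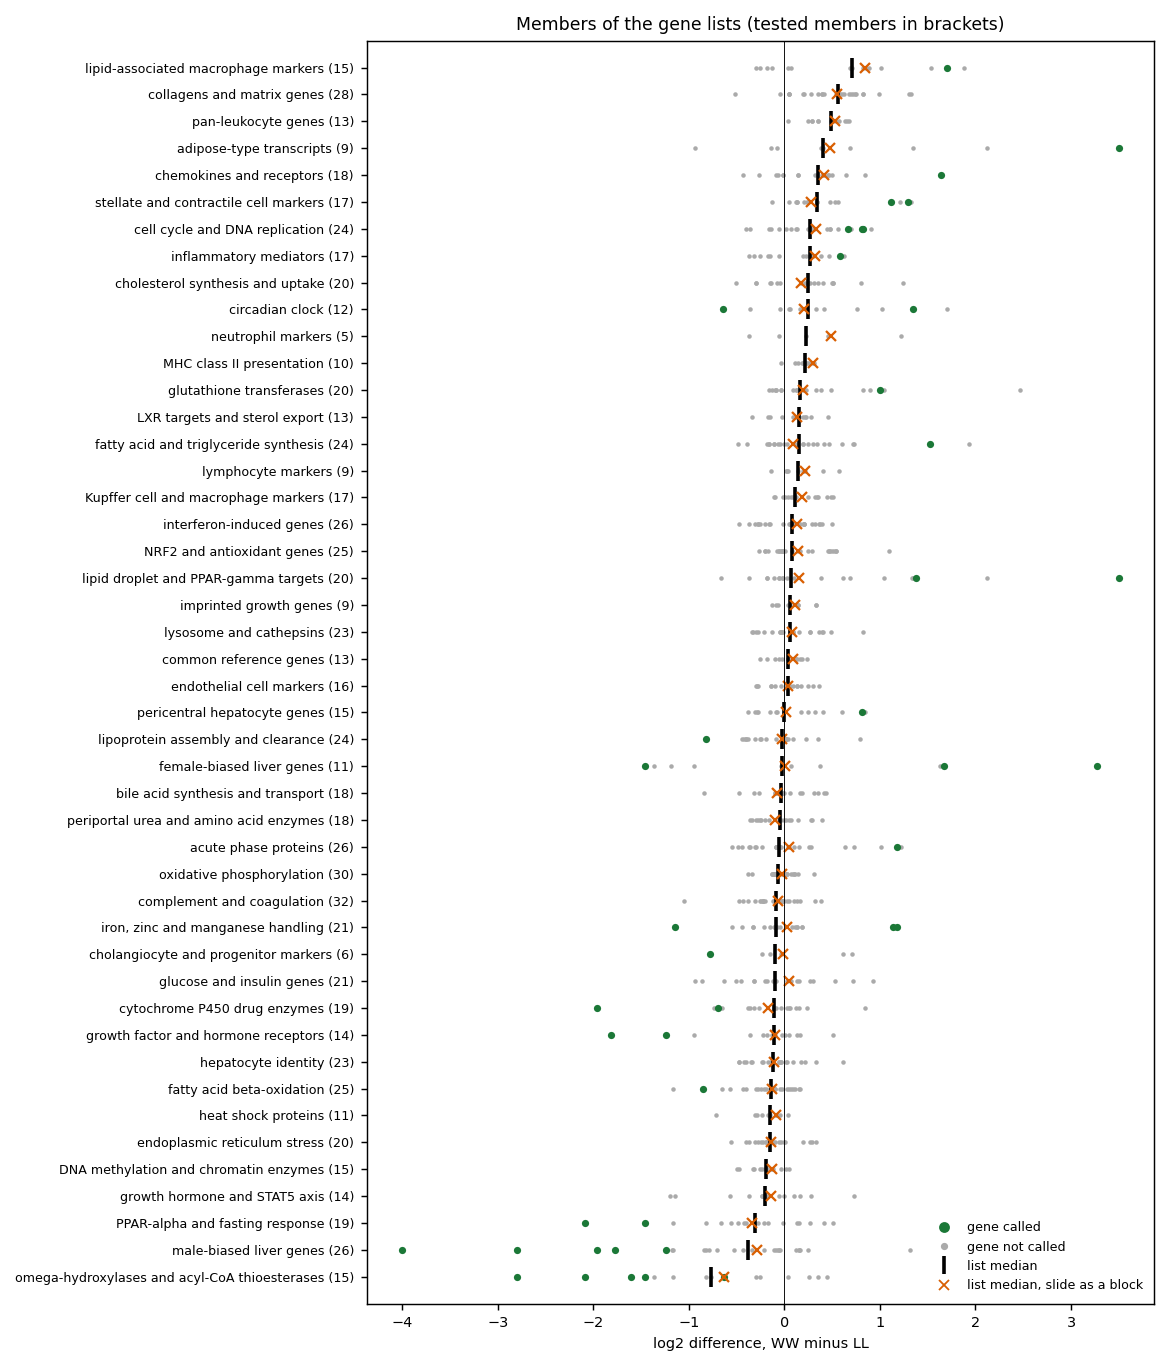
Log2 difference, WW minus LL (x axis), of every tested member of the 46 gene lists with at least 5 tested genes (y axis, sorted by median), with called genes in green, other genes in grey, black bars for list medians and crosses for medians with slide as a block. The omega-hydroxylases and thioesterases have the lowest median, -0.77, and the markers of lipid-associated macrophages the highest, 0.71.

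Cxcl1 and Tnfrsf1a rose among the inflammatory genes, and no gene of the pan-leukocyte list passed. Of 18 tested chemokines and receptors 1 rose (median 0.36), of 17 inflammatory mediators 1 rose (median 0.26), and of 13 pan-leukocyte genes none was called (median 0.49, or 0.53 blocking on slide). In 13 of these 13 the mean was higher in WW, beside 50.85% of all genes tested. A gene can pass the detection filter through WW alone, so this count is a description and no test. Cxcl1, a chemokine that draws neutrophils, had 9.12, 9.56 and 10.90 in WW livers, against 7.14, 8.20 and 8.84 in LL livers, with no overlap. The difference was 1.64 ± 0.29 (SE), adjusted p = 0.00472, 3.12-fold, with 2.28 within slide 1 and 2.0 within slide 4, and it held whichever mouse was left out. Cxcl1 averaged 9.72 ± 0.63 in WW, 9.59 ± 0.35 in LW and 9.34 ± 0.41 in WL, against 8.08 ± 0.69 in LL livers, so the 3 groups with any western diet lay close together. Tnfrsf1a, the main receptor of tumour necrosis factor, had 7.46, 7.77 and 7.97 in WW livers, against 6.80, 7.16 and 7.50 in LL livers (0.58 ± 0.14 (SE), adjusted p = 0.0463). That call was lost with slide as a block (adjusted p = 0.0869) and held in 4 of 12 fits without 1 mouse, reaching 0.114 without WW replicate 4. The other tested probes of Tnfrsf1a, nearly as bright, did not pass. They differed by 0.38 ± 0.16 (SE), adjusted p = 0.250, and by 0.55 ± 0.17 (SE), adjusted p = 0.105. Cxcl9, which draws T cells, differed by 0.65 ± 0.28 (SE), adjusted p = 0.254, Cxcl16 by 0.42 ± 0.17 (SE), adjusted p = 0.238, and Nfkb1, a subunit of the inflammatory factor NF-kappa-B, by 0.30 ± 0.11 (SE), adjusted p = 0.192.

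Leukocyte signal varied among the mice of each group. Arhgdib, Coro1a, Cd52 and Tyrobp, made by most white blood cells, differed by 0.57 ± 0.16, 0.65 ± 0.20, 0.67 ± 0.22 and 0.64 ± 0.22, with adjusted p = 0.0782, 0.111, 0.135 and 0.157. The leukocyte score ran between 0.09 and 1.05 in WW mice, the highest being WW replicate 6, and between -0.42 and 0.55 in LL mice, the highest being LL replicate 3. The summed linear signal of the 13 genes ran between 4160 and 8853 units in WW and between 3036 and 6556 in LL. Ptprc and Itgb2, defining genes of leukocytes, were among the 10 list members not tested. The lymphocyte list (9 of 23 tested, median 0.15), the neutrophil list (5 of 15, median 0.23), MHC class II genes (10 of 10, median 0.21) and interferon-induced genes (26 of 32, median 0.08) held no called gene.

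Macrophage genes held 1 call. Markers of macrophages that handle lipid had a median of 0.71 over 15 tested genes, of which 1 rose, while the 17 tested general Kupffer cell and macrophage genes had a median of 0.11 and no call. Anxa2, a membrane-binding protein made by many cell types including these macrophages, had 10.71, 11.40 and 11.90 in WW livers, against 8.67, 9.53 and 11.15 in LL livers, where LL replicate 3 held the highest value. The difference was 1.70 ± 0.39 (SE), adjusted p = 0.0339, 3.25-fold, with 2.60 within slide 1 and 1.94 within slide 4, and the call held in 5 of 12 fits without 1 mouse, reaching adjusted p = 0.0809 without WW replicate 2. Gpnmb, a glycoprotein of lipid-loaded macrophages, had 6.32, 8.45 and 10.75 in WW livers, against 4.60, 6.13 and 9.58 in LL livers, and its difference of 1.88 ± 0.81 did not pass (adjusted p = 0.258). Trem2, a lipid-sensing receptor, was detected on all 6 WW and 4 of 6 LL arrays and differed by 1.01 ± 0.47 (SE), adjusted p = 0.303. Lgals1 differed by 1.53 ± 0.52 (SE), adjusted p = 0.148, and Capg by 0.85 ± 0.31 (SE), adjusted p = 0.169. The general markers Adgre1, Cd68 and C1qa differed by 0.0 ± 0.15, 0.49 ± 0.23 and 0.34 ± 0.14, with adjusted p of 0.998, 0.297 and 0.223. The interval of the Adgre1 difference was -0.30 to 0.30.

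By score over the lipid-associated macrophage list the mice overlapped widely, between -0.04 and 1.38 in WW and between -0.71 and 1.02 in LL. LL replicate 3, at 1.02, lay above every WW mouse but WW replicate 6, and WW replicates 1 and 5 lay at -0.04 and 0.04. The summed signal of the list ran between 8570 and 21036 units in WW and between 5627 and 15777 in LL. Acute phase proteins, which liver secretes in inflammation, held 1 call among 26 (Hamp2, given with the metals), with a median of -0.06. Saa1, Lcn2 and Orm2 of that list differed by 0.73 ± 0.42 (SE), adjusted p = 0.424, by 1.23 ± 0.64 (SE), adjusted p = 0.361, and by 1.01 ± 0.41 (SE), adjusted p = 0.226. In complement and coagulation none of 32 was called (median -0.08), with C8b, a part of the membrane attack complex, at -1.05 ± 0.28 (SE), adjusted p = 0.0669 and at -1.30 with slide as a block (adjusted p = 0.00794).

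**Figure D4:**
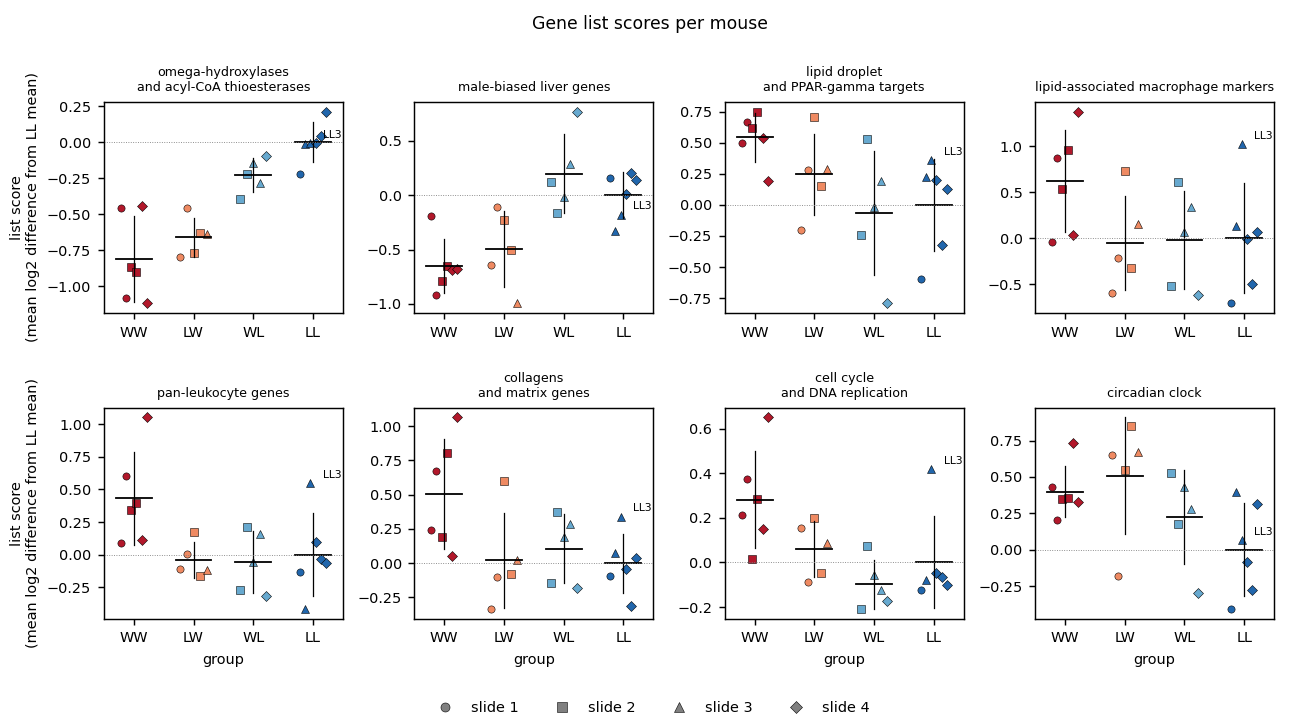
Scores of 8 gene lists per mouse (y axis, mean log2 difference from the LL mean over the list's tested genes) in the groups WW, LW, WL and LL (x axis), with the marker giving the slide, the lines the mean ± SD and LL replicate 3 labelled. The omega-hydroxylase and thioesterase scores of the WW mice, at or below -0.44, all lie under those of the LL mice, while in the macrophage, leukocyte, matrix and cell cycle lists LL replicate 3 lies within the WW range.

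No gene of 28 tested collagens and matrix genes was called at its brightest probe. In 26 of the 28 the mean was higher in WW, as it was in 50.85% of all genes tested, and the median was 0.56 (blocking on slide, 0.55). A member can pass the detection filter through WW alone, as Col1a1 and Timp1 did, detected on 6 WW and 3 of 6 LL arrays each. The count of 26 is therefore a description and no test. Col14a1 and Tgfbi of this list passed at dimmer probes alone, and Tgfbi passed at its brightest probe with slide as a block (0.70, adjusted p = 0.0455). Col1a1, the chain of the main scar collagen, had 5.15, 6.09 and 7.30 in WW livers, against 4.28, 4.79 and 5.64 in LL livers, was detected on all 6 WW and 3 of 6 LL arrays, and differed by 1.31 ± 0.35 (SE), adjusted p = 0.0720. Timp1, an inhibitor of matrix-degrading enzymes, had 5.71, 6.51 and 7.38 in WW livers, against 4.44, 4.92 and 6.73 in LL livers (1.32 ± 0.38 (SE), adjusted p = 0.0913). Both genes overlapped between the groups, and so did Col4a2, of basement membrane, at 0.82 ± 0.22 (SE), adjusted p = 0.0711, and Col5a1 at 0.72 ± 0.20 (SE), adjusted p = 0.0787. The matrix score ran between 0.05 and 1.06 in WW mice and between -0.31 and 0.34 in LL mice, and the mice with the highest leukocyte scores, WW replicate 6 and LL replicate 3, also had the highest matrix score of their group. The part of leukocyte content in the matrix differences was not tested.

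Stellate and contractile cell markers held 2 called genes among 17 tested, both higher in WW, with a median of 0.34. Of all genes tested 0.612% were called higher. Tpm2, a tropomyosin of contractile cells, had 6.05, 7.03 and 7.80 in WW livers, against 5.26, 5.65 and 6.25 in LL livers (1.30 ± 0.29 (SE), adjusted p = 0.0338), with overlap between the groups. Among WW mice it did not follow the score of its list. WW replicate 6 had the highest score, 0.78, and the lowest Tpm2, while WW replicate 5 had the lowest score, 0.07, and the highest Tpm2. The Tpm2 call was lost with slide as a block (adjusted p = 0.0546) and held in 4 of 12 fits without 1 mouse, reaching 0.0787 without LL replicate 5. Acta2, the smooth muscle actin of activated stellate cells, differed by 1.21 ± 0.35 (SE), adjusted p = 0.0944. The 16 tested endothelial markers had a median of 0.04 and no call. Cdh1, the adhesion protein E-cadherin of epithelial cells, was detected on 2 of 6 WW and all 6 LL arrays and differed by -0.77 ± 0.16 (SE), adjusted p = 0.0177. It passed the detection filter through LL, and its WW levels lie near background.

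3 subunits of the helicase that opens DNA for replication rose in WW livers. Of 24 tested cell cycle and replication genes 3 rose and none fell (median 0.27), beside 0.612% of all genes called higher. All 3 are subunits of that helicase, the MCM complex. Mcm2 had 5.28, 5.62 and 6.40 in WW livers, against 4.48, 4.98 and 5.32 in LL livers, detected on all 6 WW and 4 of 6 LL arrays, a difference of 0.82 ± 0.20 (SE), adjusted p = 0.0428. Mcm4 had 6.91, 7.31 and 7.83 in WW livers, against 6.10, 6.64 and 7.14 in LL livers (0.67 ± 0.16 (SE), adjusted p = 0.0462). Mcm5 had 5.88, 6.16 and 6.43 in WW livers, against 4.85, 5.30 and 5.78 in LL livers (0.81 ± 0.19 (SE), adjusted p = 0.0345), the only one of them with no overlap. Its lowest LL value, 4.85, lies near background. The calls held in 3, 5 and 4 of 12 fits without 1 mouse, reaching adjusted p = 0.119 without WW replicate 2, 0.105 without WW replicate 2 and 0.0853 without LL replicate 6. With slide as a block, the adjusted p was 0.0707 for Mcm2, 0.0130 for Mcm4 and 0.0300 for Mcm5.

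The brightest probe of Mcm6 did not pass (0.44 ± 0.20, adjusted p = 0.291), whereas its dimmer probe did (0.85 ± 0.17, adjusted p = 0.0134). That dimmer probe was detected on all 6 WW and 1 of 6 LL arrays. It passed the detection filter only through WW, where it is high, and LL levels lie near background, so its call adds no support. Fen1, a nuclease of lagging-strand synthesis, differed by 0.48 ± 0.14 (SE), adjusted p = 0.0978. Mki67 and Top2a, markers of dividing cells, were among the 14 list members not tested. The cell cycle score ran between 0.02 and 0.65 in WW and between -0.12 and 0.42 in LL mice, where LL replicate 3 was highest and the other 5 LL mice lay between -0.12 and -0.05. These high mice are also the ones with high leukocyte scores, and the part of leukocyte content was not tested.

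Since MCM genes are known targets of E2F factors in dividing cells, the 250 bases before the start site of Mcm5, of Mcm6, which passed at its dimmer probe alone, and of Mcm2 are shown with E2F-type motifs in capitals. Mcm4 is not shown, as the promoter set held no start site for it. Mcm3 and Mcm7 were searched too and are not shown. The sequences are 5′ to 3′ on the strand of the gene, from RefSeq on build GRCm38.p6. The motifs searched were TTTCCCGC, TTTGGCGC, TTTCGCGC and TTTGCCGC on both strands, and matches may overlap. They lie at chr8:75109259-75109508 on the + strand for Mcm5, at chr1:128359706-128359955 on the - strand for Mcm6 and at chr6:88898781-88899030 on the - strand for Mcm2.
Mcm5: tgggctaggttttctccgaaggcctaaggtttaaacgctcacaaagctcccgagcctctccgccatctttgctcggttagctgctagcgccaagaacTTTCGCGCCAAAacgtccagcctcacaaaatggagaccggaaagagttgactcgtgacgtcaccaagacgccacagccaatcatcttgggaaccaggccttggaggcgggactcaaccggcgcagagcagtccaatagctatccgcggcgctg
Mcm6: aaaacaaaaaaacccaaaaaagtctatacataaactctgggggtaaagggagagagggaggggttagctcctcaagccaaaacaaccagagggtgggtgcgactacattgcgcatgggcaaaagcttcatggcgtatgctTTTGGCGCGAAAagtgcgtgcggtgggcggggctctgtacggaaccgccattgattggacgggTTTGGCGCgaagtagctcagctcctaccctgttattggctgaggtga
Mcm2: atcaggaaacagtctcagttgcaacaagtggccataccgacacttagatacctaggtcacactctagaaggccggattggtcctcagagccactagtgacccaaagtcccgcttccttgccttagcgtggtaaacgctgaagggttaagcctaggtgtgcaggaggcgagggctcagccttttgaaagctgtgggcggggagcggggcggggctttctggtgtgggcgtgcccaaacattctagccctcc
The Mcm5 window holds 2 overlapping matches, 1 on each strand, the Mcm6 window holds 3, and the Mcm2 window holds none of these letters. Among the windows not shown, that of Mcm3 holds 0 matches, that of start site 1 of Mcm7 holds 1 and that of start site 2 of Mcm7 holds 0. Of 32851 promoter windows of the same length 1.86% hold at least 1 of the 4 motifs. Binding by E2F factors was not tested.

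Genes of the daily clock differed in both directions. Of 12 tested clock genes 1 rose and 1 fell (median 0.25). Dbp, a clock output factor, had 11.99, 12.15 and 12.39 in WW livers, against 9.24, 11.29 and 11.39 in LL livers, with no overlap (1.35 ± 0.32 (SE), adjusted p = 0.0390). Clock, a core activator of the cycle, had 8.0, 8.13 and 8.29 in WW livers, against 8.62, 8.79 and 8.92 in LL livers, again with no overlap and within a narrow range in each group (-0.64 ± 0.12 (SE), adjusted p = 0.0115). The Clock call held whichever mouse was left out, and the Dbp call held in 3 of 12 fits and reached adjusted p = 0.0931 without LL replicate 5. Dbp averaged 12.17 ± 0.16 in WW, 12.21 ± 0.58 in LW and 11.71 ± 0.64 in WL, against 10.82 ± 0.87 in LL livers. Ciart, a repressor of the cycle, differed by 1.71 ± 0.50 (SE), adjusted p = 0.0961, and Rora, a receptor that drives it, by -0.36 ± 0.12 (SE), adjusted p = 0.131. Rgs16, a brake on G-protein signalling whose level in mouse liver follows feeding time, had 9.54, 11.02 and 11.28 in WW livers, against 5.94, 8.29 and 9.44 in LL livers, with no overlap and a 7.32-fold difference (2.87 ± 0.63 (SE), adjusted p = 0.0244). The labels used here give no time of day for the sampling, and its part in these differences was not tested.

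Detoxifying enzymes showed 1 call. Gstm2, a glutathione transferase, had 12.46, 12.54 and 12.87 in WW livers, against 10.69, 11.59 and 12.60 in LL livers, with LL replicate 3 alone inside the narrow WW range (1.01 ± 0.22 (SE), adjusted p = 0.0257). Among 20 tested transferases it alone passed, with a median of 0.16, and the call held in 7 of 12 fits without 1 mouse, reaching adjusted p = 0.0797 without LL replicate 6. Gsta1, of the alpha class, differed by 2.46 ± 0.73 (SE), adjusted p = 0.0978, and passed with slide as a block (adjusted p = 0.0383), while Gsta4 stood at 1.04 ± 0.28 (SE), adjusted p = 0.0700 and Mgst3 at 0.89 ± 0.30 (SE), adjusted p = 0.145. The 25 NRF2 and antioxidant genes held no call (median 0.08), with Nfe2l2, the gene of NRF2 itself, at 0.54 ± 0.14 (SE), adjusted p = 0.0571 and Sod3 at 0.47 ± 0.13 (SE), adjusted p = 0.0768.

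Metal handling changed at 3 genes of 21 tested, 2 higher and 1 lower (median -0.09), beside 1.08% of all genes called. Hamp2, a second hepcidin gene of the mouse, had 11.38, 12.34 and 12.84 in WW livers, against 10.91, 11.10 and 11.37 in LL livers, with no overlap (1.17 ± 0.28 (SE), adjusted p = 0.0431), and its probe may share signal with the similar gene Hamp. The call held in 2 of 12 fits without 1 mouse and reached adjusted p = 0.0971 without WW replicate 2. Slc39a4, a zinc importer, had 9.0, 9.46 and 10.004 in WW livers, against 7.94, 8.18 and 9.43 in LL livers (1.14 ± 0.24 (SE), adjusted p = 0.0194), where LL replicate 3 alone reached the WW range. Slc30a10, which exports manganese, had 6.87, 7.41 and 7.90 in WW livers, against 8.27, 8.48 and 9.27 in LL livers, with no overlap (-1.15 ± 0.18 (SE), adjusted p = 0.00149), and held whichever mouse was left out.

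Most other called genes belong to none of these lists. Tmem45b, a membrane protein, had 5.53, 7.0 and 7.99 in WW livers, against 4.27, 4.67 and 5.14 in LL livers, with no overlap (2.10 ± 0.29 (SE), adjusted p = 0.000734). It was detected on all 6 WW and 1 of 6 LL arrays, so it passed the detection filter through WW and its LL levels lie near background. Fndc10 differed by 1.75 ± 0.36 (SE), adjusted p = 0.0147, and Bhlhb9 by 1.18 ± 0.22 (SE), adjusted p = 0.00793. Lower in WW and without overlap were Lrfn3 (-1.66 ± 0.26 (SE), adjusted p = 0.00149), Nlrp12, a NOD-like receptor that restrains inflammatory signalling (-1.32 ± 0.24 (SE), adjusted p = 0.00692), Slc45a3 (-1.04 ± 0.21 (SE), adjusted p = 0.0146) and Dynll2, a dynein light chain (-1.02 ± 0.24 (SE), adjusted p = 0.0390). Smim1, which carries the Vel blood group in humans, had 6.93, 7.21 and 7.46 in WW livers, against 7.86, 8.24 and 8.38 in LL livers, and its difference of -0.99 ± 0.13 had the smallest p of all genes, at an adjusted p of 0.000607. Slc13a3, a carrier of dicarboxylates counted among pericentral hepatocyte genes (15 tested, median -0.01), differed by 0.81 ± 0.19 (SE), adjusted p = 0.0373.

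Few genes of the remaining lists were called. The 49 lists together held 764 tested genes, of which 34 were called, 18 higher and 16 lower, and 27 lists held no called gene. Of all genes tested 1.08% were called, and the lists were written with earlier results of these data known. Medians were -0.04 for 18 periportal urea and amino acid enzymes, -0.15 for 20 endoplasmic reticulum stress genes, -0.15 for 11 heat shock proteins, -0.19 for 15 DNA methylation and chromatin enzymes, 0.06 for 9 imprinted growth genes, 0.06 for 23 lysosomal genes, 0.15 for 13 sterol export genes and 0.04 for 13 common reference genes, all without a call. Of the 15 DNA methylation and chromatin enzymes 13 had a lower mean in WW, whereas 50.85% of all genes tested had a higher one, a description and no test. Their score lay between -0.36 and -0.096 in WW mice and between -0.048 and 0.11 in LL mice. It is 1 of 4 lists whose scores did not overlap between the groups, with the omega-hydroxylases and thioesterases, the PPAR-alpha and fasting genes and the erythroid markers. Among 19 tested drug-metabolising cytochromes P450 2 fell, Cyp2c54 and Cyp2c67 (median -0.11).

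At the level of single probes 143 of 14468 were called (0.988%). Of the 97 called genes, 31 have more than 1 tested probe, and 46 of their 47 other probes had the same direction as the brightest one, 6 of them called. With slide as a block 44 of the 55 higher genes and 34 of the 42 lower genes were called. Dynll2 was lost there, at -0.92 (adjusted p = 0.0723).

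**Figure D5:**
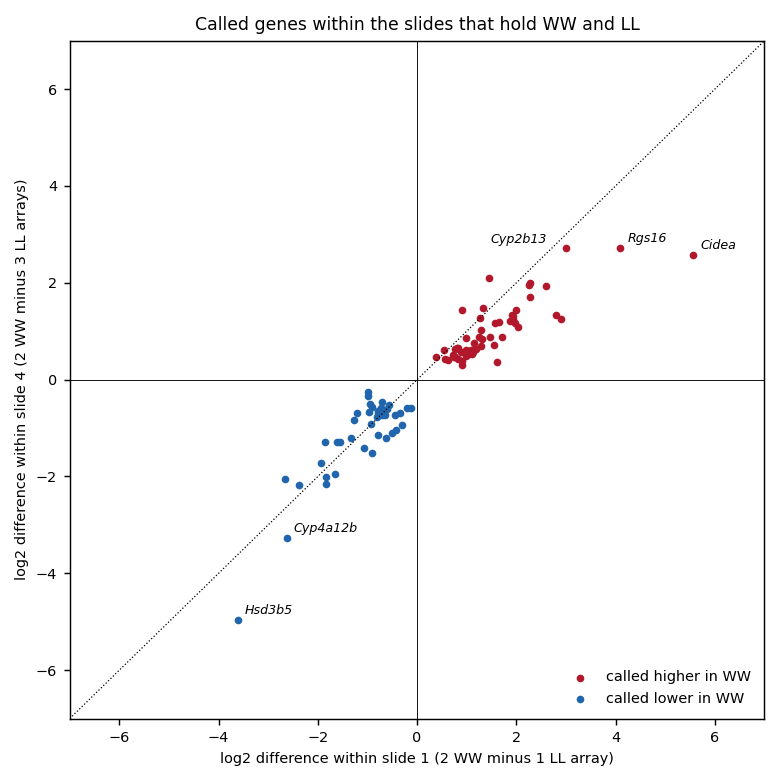
Log2 differences of the 97 called genes within slide 1 (x axis, 2 WW minus 1 LL array) and within slide 4 (y axis, 2 WW minus 3 LL arrays), with genes called higher in red, lower in blue and a dotted line of equality. Every gene lies in the quadrant of its call, and Hsd3b5 and Cidea lie farthest out. Of all genes tested 63.57% had the same direction in both slides.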

How the data were processed

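The deposited non-normalized table gives an intensity and a detection p-value per probe and array, with background already subtracted, per the file headers and values below 0. Intensities in the deposited series matrix are normalized by the authors (column medians 244.94 to 245.16, by a method that is not given in the sources used here) and served as an alternative. Per the labels' protocols TriReagent was used for RNA and an Illumina TotalPrep kit for biotin labelling.

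All 22 arrays were background-corrected and quantile-normalized on the log2 scale with neqc of limma 3.58.1 (R 4.3.3; offset 16). Probes with a detection p under 0.05 on at least 5 of the 12 WW and LL arrays were kept (14468), and named through a RefSeq gene table (GRCm38.p6, names only): 27399 of 45281 names matched a symbol, 8314 a synonym, 191 several genes and 9377 none. A gene is represented by its named probe with the highest mean (8992 genes). No probe positions were used here, so no probe coordinates are given. Group means of the 4 groups were fitted with lmFit and eBayes, and p-values were adjusted by Benjamini-Hochberg over all 14468 probes. The fit was tested on simulated data.

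Named genes are the 15 highest and 15 lowest called differences, the 8 smallest p-values, up to 4 members per list by p, and a fixed set; the text takes a part of them, picked after their values were seen. Outside that rule, and also picked so, are Acot8, Cyp17a1 and Wdr93, the genes next to the threshold, those called by a dimmer probe and the blood markers. Members, lists and tests were chosen with earlier results of these data known. Alternatives were another normalization, background and filter, the authors' values, slide as a block, replicate number as a block, array weights, and each mouse left out. Slides differed, with a median F over genes of 2.12 against 0.826 for no difference. Arrays give no counts, so the number of mice and the signal over background limit the precision.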

Additional observations from a re-analysis of the deposited data

Results flagged for a closer look

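Of 298 groups of 6 mice examined, over the genes and list scores of the text, 23 held 1 mouse that stood apart by Dixon's criterion, 16 of them gene values and 7 list scores. Chance alone gives about 1 in 20.

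WW replicate 6 stood apart most often among the WW mice. Its log2 intensity was 9.447 for Thrsp, where the other WW mice lay between 10.33 and 10.84, 10.9 for Cxcl1 (others 9.12 to 9.78) and 9.543 for Rgs16 (others 10.7 to 11.28). Its scores were 0.8233 for chemokines and receptors (others 0.126 to 0.337) and 0.1811 for iron, zinc and manganese handling (others -0.115 to -0.00734). WW replicate 4 was low for C1qa, at 8.034, and for heat shock proteins, with a score of -0.3216. WW replicate 1 had a male-biased score of -0.1903, where the other 5 WW mice lay between -0.917 and -0.651.

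LL replicate 3 was high for Capg (7.767, others 6.14 to 6.53), Slc39a4 (9.433, others 7.94 to 8.46) and Fndc10 (6.858, others 5.19 to 5.78), and its cell cycle score was 0.417, where the other LL mice lay between -0.124 and -0.0477. LL replicate 1, whose array had the lowest mean signal, was low for Msmo1 (5.803) and Acta2 (4.886) and high for Crat (10.95), Igf1 (13.63) and Slc30a10 (9.274). LL replicate 6 was high for Acsl1 (12.33), Hacl1 (7.336) and the beta-oxidation score (0.1132). LL replicate 5 was high for Srd5a1 (8.946), and LL replicate 2 for Cyp17a1 (11.12) and the glucose and insulin score (0.1424).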

How the results depend on the processing

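All 97 called genes kept their direction in every alternative in which they were tested (80 of them where detection on all 12 arrays was required), and the number of calls moved. Called, higher and lower in WW, were 49, 24 and 25 genes on the authors' normalized values, 31, 13 and 18 without a detection filter, where 19919 genes were tested, and 64, 49 and 15 with median centring. With slide as a fixed block they were 155, 80 and 75, as a random block 173, 93 and 80, and with array weights 286, 170 and 116. Leaving out 1 mouse gave 36 to 256 called genes, 14 to 165 higher and 20 to 91 lower; the cause was not tested. The 97 genes overlap in part with these calls, by 41, 29 and 54 genes on the authors' values, without the filter and with median centring, by 78, 96 and 96 with the blocks and weights, and by 35 to 97 without 1 mouse. With only the 12 arrays in the fit 78 were called (60 of the 97), without background modelling 78 (71), with slides 1 and 4 alone 80 (36) and with detection on all 12 arrays 94 (80). Adjusting over 1 probe per gene called 115. Stability was counted over 46 called genes named in the text, without Galnt10, Nrg4 and Gm4952, which lie next to the threshold. Of these 46, 24 passed without any 1 mouse, 13 under all other alternatives, and the same 13 under both: Srebf1, Acot1, Cyp4a14, Cyp4a31, Hacl1, Cyp4a12b, Elovl3, Cxcl1, Slc30a10, Tmem237, Bhlhb9, Lrfn3 and Smim1. Plin2 differed by -0.18 in the fit reported, by 0.014 with slide as a block and by 0.12 in slides 1 and 4 alone; Adgre1, near 0, was at -0.016 with array weights and between -0.071 and 0.096 without 1 mouse. Replicate numbers are shared by WW and LL. Same-numbered mice correlated at -0.19 to 0.44 in their deviations, and 3 of 6 WW mice correlated best with their own number. Those were numbers 1, 5 and 6, at 0.44, 0.29 and 0.28, and only they had their WW and LL arrays on the same slide. Pairing by number and a shared slide therefore cannot be told apart. With the replicate number as a block 118 genes were called, 55 higher and 63 lower, 66 of them among the 97. Genes near background have compressed differences.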

Other observations

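Among the genes that belong to no list, Tmem237 and Wdr93 were higher in WW livers. Tmem237, of the gate at the base of the cilium, had 7.46, 7.81 and 8.20 log2 units in WW livers, against 5.89, 6.40 and 7.08 in LL livers, with no overlap (1.35 ± 0.21 (SE), adjusted p = 0.00149). Wdr93, a WD-repeat protein, differed by 0.68 ± 0.13 (SE), adjusted p = 0.0118. Within slides the differences were 1.94 within slide 1 and 1.32 within slide 4 for Tmem237 and 1.12 within slide 1 and 0.57 within slide 4 for Wdr93.

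A further 19 genes were called by a probe that is not their brightest. Col14a1, a fibril-associated collagen, differed by 0.89 ± 0.18 at its dimmer probe (adjusted p = 0.0120) and by 0.60 ± 0.19 at its brightest (adjusted p = 0.107). Tgfbi, a matrix protein induced by TGF-beta, differed by 0.75 ± 0.16 at its dimmer probe (adjusted p = 0.0194) and by 0.39 ± 0.23 at its brightest (adjusted p = 0.436). Retsat, which saturates retinol, differed by -0.76 ± 0.15 at its dimmer probe (adjusted p = 0.0134) and by -0.68 ± 0.21 at its brightest (adjusted p = 0.112). Sdc1, a heparan sulfate proteoglycan of hepatocytes, differed by -1.01 ± 0.20 at its dimmer probe (adjusted p = 0.0134) and by -0.39 ± 0.17 at its brightest (adjusted p = 0.260). Selplg, not a member of the pan-leukocyte list, differed by 0.49 ± 0.12 at its dimmer probe (adjusted p = 0.0392) and by 0.42 ± 0.17 at its brightest (adjusted p = 0.238).

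No blood marker was called. Hba-a1, Hbb-b1 and Alas2, of red blood cells and their precursors, were the 3 tested of 11 erythroid genes, with differences of 0.53, 0.43 and 0.40. Their score lay between 0.28 and 0.76 in WW mice and between -0.14 and 0.15 in LL mice, with no overlap, while of the 3 genes 1 did not overlap.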
